A study of Rattus norvegicus with 2 samples.

Results

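The matricellular genes of the postnatal rat cochlear duct were followed at the level of single cells in 8 members, the CCN genes Ccn1, Ccn2 and Ccn3, periostin (Postn), tenascin C (Tnc), SPARC (Sparc), its relative SPARC-like 1 (Sparcl1) and osteopontin (Spp1). Members were taken by gene symbol, and each of the 8 was found once among the 32623 genes listed (Ensembl identifiers ENSRNOG00000014350 for Ccn1, ENSRNOG00000015036 for Ccn2, ENSRNOG00000008697 for Ccn3, ENSRNOG00000012660 for Postn, ENSRNOG00000058645 for Tnc, ENSRNOG00000012840 for Sparc, ENSRNOG00000015093 for Sparcl1 and ENSRNOG00000043451 for Spp1). The samples came from untreated Sprague-Dawley rats at postnatal day 1 (P1) and postnatal day 7 (P7), and the question set by the design was how cells of the cochlear duct progress between these ages. Each age was 1 droplet library of tissue pooled from many animals, so no test between ages was possible and no p-value is given. By the Methods the spiral ligament, stria vascularis and spiral ganglion were dissected away before the duct was dissociated, so the number of cells of a type also depends on that dissection and on survival of the enzyme treatment.

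Matricellular proteins are secreted into the extracellular matrix without being part of its main fibres. They bind integrins and other receptors, growth factors and collagen, and in that way tune adhesion, matrix assembly and signalling around the cell. Ccn1 and Ccn2 are short-lived transcripts known as targets of the YAP and TEAD factors and of TGF-beta, whereas periostin and tenascin C mark developing and remodelling connective tissue. Sparc binds collagen and calcium and helps collagen to be deposited, and osteopontin is an integrin ligand known from bone and also from some neurons.

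Cells were assigned to classes by gates, which are lists of marker genes that hold none of the 8 members. The 6 mesenchymal gates are named only by their marker genes, and the other names carry "-like" because they rest on markers alone. The P1 library had 114285848 UMIs (unique molecular identifiers, 1 for each captured transcript) and the P7 library 101264868, and 12779 and 12581 cells were kept, with a median of 6565 and 6878 UMIs. The libraries had 60 barcode sequences in common. The labels call the cells greater epithelial ridge cells, but epithelial-like cells, with Epcam and keratins, made up only 1.13% of the kept cells at P1 and 0.556% at P7. The summed level of 6 markers of the greater epithelial ridge was 100.2 CPM (UMIs for every 1000000 UMIs of the cells summed) over all P1 cells and 83.1 CPM over all P7 cells, against 2051 and 2949.9 CPM within the epithelial-like cells. Of the 6, Epcam is also a marker of the epithelial gate, so its high level in these cells follows from the gate. Epcam alone had 1269.7 CPM at P1 and 2175.0 CPM at P7 within the epithelial-like cells. Mesenchymal and glia-like cells made up most of the cells given to 1 class.

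Among cells given to 1 class, glia-like and Gpc3-Dcn cells were more numerous at P7, and Irx3-Scg3, Penk-Col8a1 and neuron-like cells fewer. Otor-Crym cells numbered 1906 at P1 and 1067 at P7, Gpc3-Dcn cells 1250 and 2253, Aldh1a2-Scara3 cells 517 and 331, and Irx3-Scg3 cells 904 and 180. Cells that passed the last 2 gates together, called double-gate cells here, numbered 430 and 215. Penk-Col8a1 cells numbered 533 and 94, glia-like cells 970 and 3049, endothelial-like cells 153 and 169, mural-like cells 302 and 267, macrophage-like cells 145 and 134, and epithelial-like cells 144 and 70. A further 2 classes had under 50 cells in 1 library and were not compared between ages, the Sfrp4-Dlx5-Matn4 cells with 44 and 608 and the neuron-like cells with 352 and 16. Cells that passed several gates otherwise, 798 and 1614, and cells that passed none, 4331 and 2514, were left out of the classes. Leaving out the former made some differences larger. Counting every cell that passed a gate, there were 1601 Irx3-Scg3 cells at P1 and 640 at P7, and 863 and 381 Penk-Col8a1 cells.

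Over all kept cells, Sparc was higher and Spp1 lower at P7, and the other 6 members differed by less than 2-fold. Sparc had 1680.1 CPM at P1 (95% interval 1672 to 1688) and 3601 CPM at P7 (3589 to 3613), a P7-to-P1 log2 ratio of 1.10 (1.09 to 1.11). Spp1 had 529 CPM at P1 and 173 CPM at P7, a log2 ratio of -1.62 (-1.64 to -1.59). Of the 8 members, 1 was thus at least 2-fold higher, against 11.5% of the 14979 genes whose higher library held 30 UMIs or more, and 1 at least 2-fold lower, against 13.0% of those genes. Since 1 of 8 is near both shares, the size of these differences does not set the members apart from other genes. All intervals are exact, hold at the 95% level and cover counting error only.

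The other 6 members had log2 ratios between -0.98 and 0.46. The 3 CCN genes were all lower at P7. Ccn1 had 62.0 and 45.0 CPM (-0.46 on the log2 scale), Ccn2 169 and 85.5 CPM (-0.98), and Ccn3 1761 and 1319.7 CPM (-0.42). Postn was close between the libraries, at 321 and 289 CPM (-0.16), as was Tnc, at 43.4 and 39.6 CPM (-0.13). Sparcl1 was higher at P7, with 671 and 923 CPM (0.46). The direction of Tnc turned when each cell was given equal weight, to 0.02, so no direction is given for it. Ccn2 passed the 2-fold limit under other scalings, with a log2 ratio of -1.05 when scaled by the median gene ratio.

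**Figure D1:**
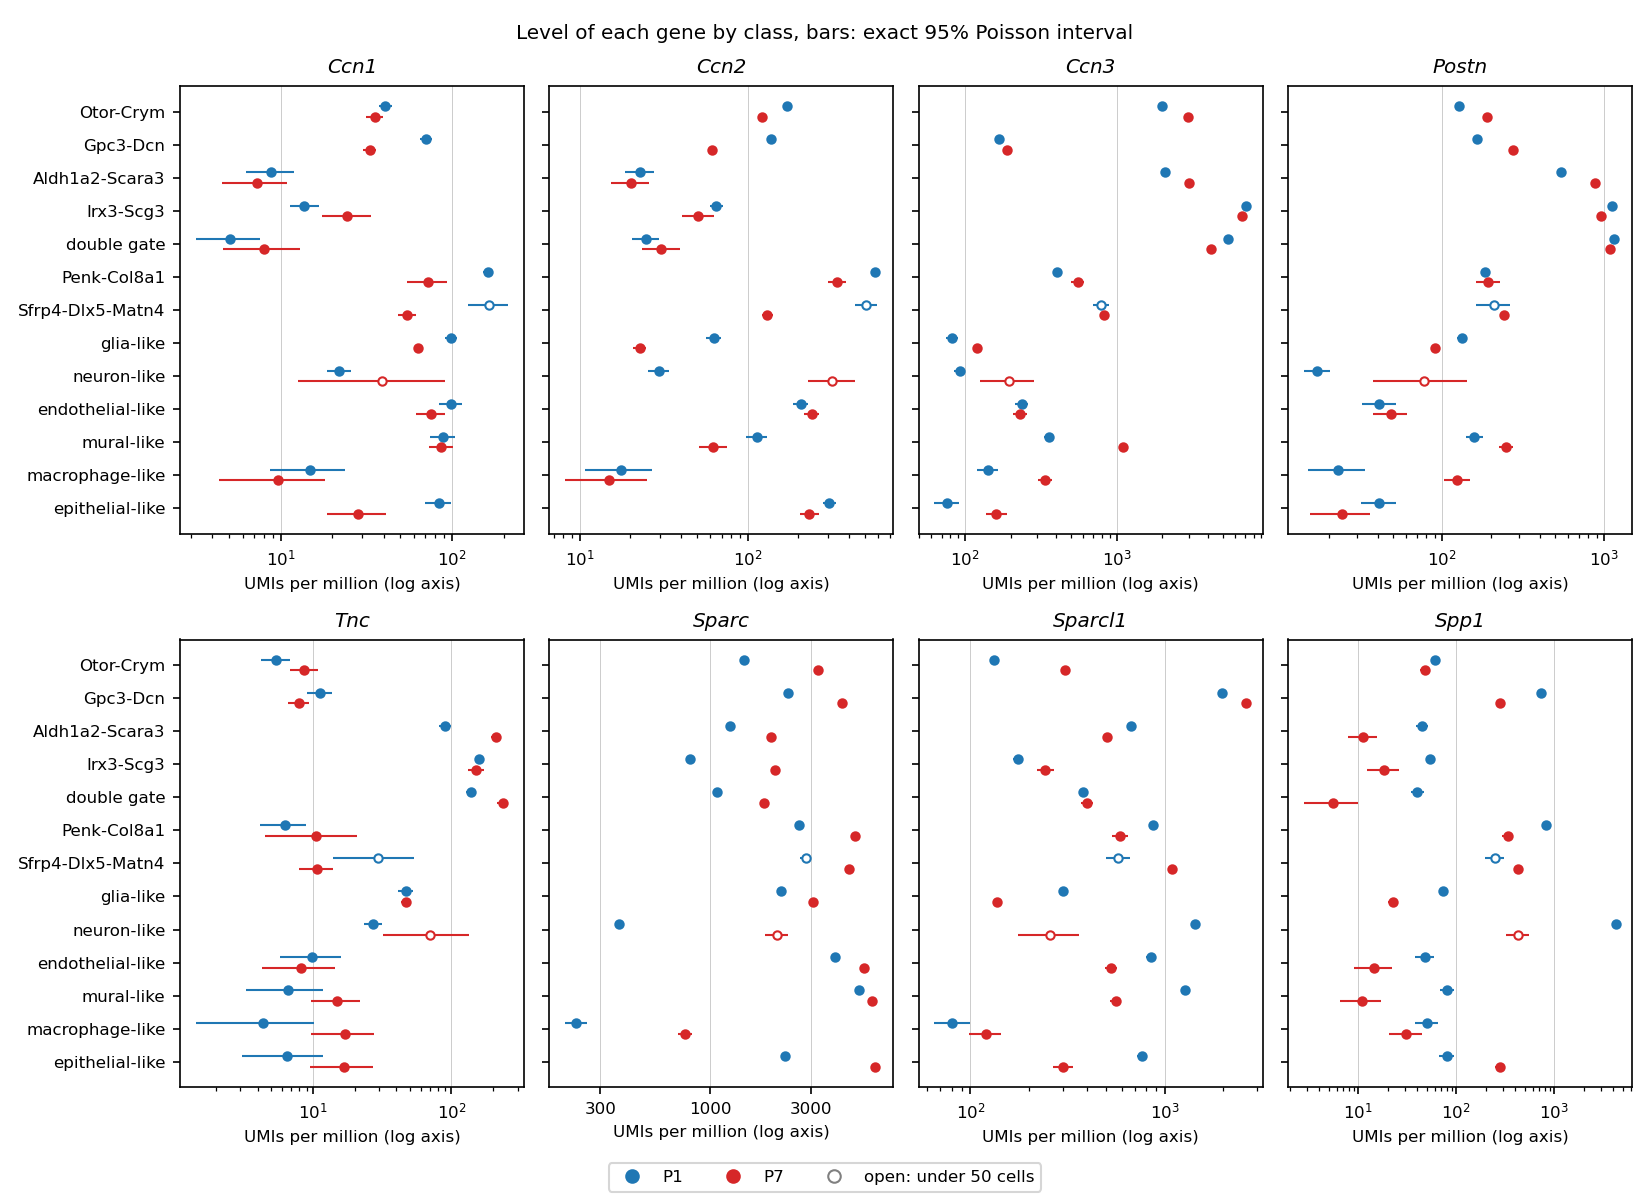
Level of each of the 8 genes (CPM, log axis) in 13 gated classes at P1 (blue) and P7 (red), with exact 95% Poisson intervals as bars and open points for classes under 50 cells. Ccn3, Postn and Tnc peaked in Irx3-Scg3, double-gate and Aldh1a2-Scara3 cells, the lowest levels of Ccn1 and Ccn2 were in double-gate, Aldh1a2-Scara3 or macrophage-like cells, and the P1 neuron-like cells stood apart for Spp1 at 4252 CPM.

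The members called in each class are given beside the share of all genes called there. In Otor-Crym cells Sparc and Sparcl1 were at least 2-fold higher at P7, 2 of 8 members against 13.1% of genes, and 0 were 2-fold lower, against 8.52%. In Gpc3-Dcn cells 0 were higher, against 11.2%, and 3 of 8 were lower (Ccn1, Ccn2 and Spp1), against 9.04%. In Aldh1a2-Scara3 cells Tnc was higher, 1 of 8 against 11.3%, and Spp1 lower, against 5.91%. In Irx3-Scg3 cells Sparc was higher, 1 of 8 against 10.8%, and Spp1 lower, against 8.59%. In double-gate cells, where 7 members had enough UMIs, 0 were higher, against 8.79%, and 1 was lower (Spp1), against 8.59%. Spp1 was thus 2-fold lower in each of these mesenchymal classes other than Otor-Crym cells, but of them Gpc3-Dcn cells alone had a share of cells with Spp1 above that of endothelial-like cells, the reference for free RNA of this gene (UMIs that a droplet holds without the cell making them), and in Aldh1a2-Scara3 cells its log2 ratio of -1.996 was -0.53 when cells of several gates were given to their highest score.

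In Penk-Col8a1 cells 0 of 7 members were 2-fold higher, against 8.9% of genes, and 2 were lower (Ccn1 and Spp1), against 9.91%. In glia-like cells 0 of 8 were higher, against 12.9%, and 3 were lower (Ccn2, Sparcl1 and Spp1), against 9.43%. In endothelial-like cells 0 of 7 were higher, against 9.31%, and 1 was lower (Spp1), against 5.99%. In mural-like cells Ccn3 was higher, 1 of 7 against 7.38%, and Sparcl1 and Spp1 were lower, 2 of 7 against 5.75%. In macrophage-like cells 3 of the 5 members with enough UMIs were higher (Ccn3, Postn and Sparc), against 10.3%, and 0 were lower, against 6.15%. In epithelial-like cells Ccn3, Sparc and Spp1 were higher, 3 of 7 against 9.92%, and Ccn1 and Sparcl1 were lower, 2 of 7 against 8.92%. The macrophage-like and epithelial-like classes were small, and 1 cell could hold a large share of a member's UMIs there.

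**Figure D2:**
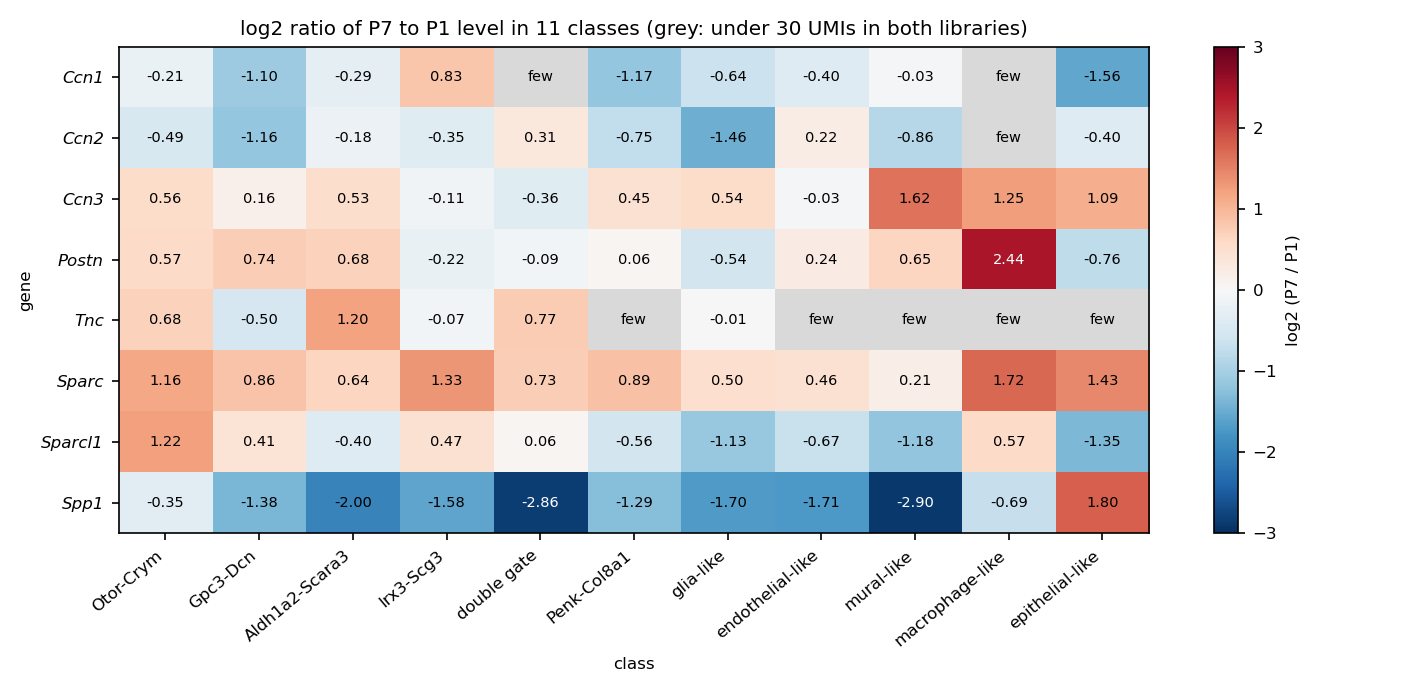
log2 ratio of the P7 to the P1 level for each of the 8 genes (rows) in the 11 classes with at least 50 cells in both libraries (columns), with red for higher and blue for lower at P7 and grey where neither library had 30 UMIs. The Sparc row was red in 11 of 11 classes, and the Spp1 row was blue in 10 of 11, the exception being the epithelial-like cells.

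Ccn1 and Ccn2, also known as CYR61 and CTGF, encode integrin and heparan sulphate binding proteins. Both were highest at P1 in Penk-Col8a1 cells among classes of at least 50 cells. Ccn1 had 162 CPM there at P1 (151 to 174) and 72.1 CPM at P7 (54.3 to 93.9), a log2 ratio of -1.17 (-1.59 to -0.77). Ccn2 had 572 CPM at P1 (550.4 to 594) and 341 CPM at P7 (301 to 385), a log2 ratio of -0.75 (-0.94 to -0.56). After each cell was thinned to 2000 UMIs, 55.9% of Penk-Col8a1 cells had a Ccn2 UMI at P1 and 33.0% at P7. Double-gate, Aldh1a2-Scara3 and macrophage-like cells were at the other end of the order for both genes at P1, in part beside neuron-like or Irx3-Scg3 cells.

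For Ccn1 the order below Penk-Col8a1 cells at P1 ran through glia-like (99.03 CPM), endothelial-like (98.8), mural-like (88.6) and epithelial-like cells (83.5), whose neighbours did not differ beyond counting error. Otor-Crym cells had 40.9 CPM, Irx3-Scg3 cells 13.8, Aldh1a2-Scara3 cells 8.85 and double-gate cells 5.04 CPM at P1. In these 4 classes the share of cells with a UMI did not stand above that in macrophage-like cells, which had 14.9 CPM, beyond both intervals. Otor-Crym cells did stand above them by level at P1, and by both share and level at P7. At P7 mural-like (86.8 CPM), endothelial-like (75.0) and Penk-Col8a1 cells led, and although the order ended at 7.25 CPM in Aldh1a2-Scara3 cells, the intervals of neighbours in it overlapped throughout.

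For Ccn2 the P1 order, among classes of at least 50 cells, went from Penk-Col8a1 cells to epithelial-like (307 CPM), endothelial-like (207), Otor-Crym (171) and Gpc3-Dcn cells (137), each step larger than counting error. Glia-like cells had 62.7 CPM at P1 and 22.7 CPM at P7, the lowest ratio of Ccn2 among the compared classes with enough UMIs, -1.46 (-1.67 to -1.26). Endothelial-like cells went the other way, from 207 to 240.3 CPM, a log2 ratio of 0.22 with an interval that reached 0 (-0.00 to 0.43). Double-gate cells had the largest ratio of Ccn2, 0.31, but 26 of their 61 UMIs at P7 were in 1 cell. Without the highest cell of each library this ratio was -0.39 (-0.99 to 0.17). In epithelial-like cells Ccn2 had 307 and 233 CPM, but 87 of its 223 UMIs at P7 were in 1 cell. In epithelial-like cells Ccn1 had 83.5 CPM at P1 and 28.2 CPM at P7, 27 UMIs, a log2 ratio of -1.56 (-2.22 to -0.96) that was -0.995 and so just under 2-fold when cells of several gates were given to their highest score. Counting also classes with under 30 UMIs, Ccn1 was lower at P7 in 9 of 11 classes and Ccn2 in 9 of 11, by at least 2-fold in 3 and 2 of them. In Gpc3-Dcn cells both were lower together, Ccn1 from 70.7 to 33.0 CPM and Ccn2 from 137 to 61.5 CPM.

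The sequences before the start of Ccn1 and Ccn2 are shown because both are textbook targets of the TEAD factors, and that of Sparc because it was the other member with a match. The 250 bases before each RefSeq gene start, build GRCr8, were searched on both strands for the TEAD motif GGAATG, and 7 of the 8 members had an entry. A match on the other strand reads CATTCC. Capitals mark matches to this motif, and the last base lies next to the gene start.
Ccn1, GRCr8 chr2:237225690-237225939, minus strand: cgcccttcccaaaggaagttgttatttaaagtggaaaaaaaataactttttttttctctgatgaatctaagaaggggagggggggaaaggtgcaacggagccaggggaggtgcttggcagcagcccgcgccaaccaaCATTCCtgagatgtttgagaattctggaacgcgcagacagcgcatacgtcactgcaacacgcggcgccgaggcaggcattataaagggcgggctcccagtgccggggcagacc
Ccn2, GRCr8 chr1:22624615-22624864, minus strand: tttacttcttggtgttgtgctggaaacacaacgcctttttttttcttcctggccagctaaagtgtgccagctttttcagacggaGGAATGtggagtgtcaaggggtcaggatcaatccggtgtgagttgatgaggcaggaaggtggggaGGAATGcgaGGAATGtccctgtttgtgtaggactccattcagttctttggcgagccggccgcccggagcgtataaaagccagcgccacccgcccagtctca
Sparc, GRCr8 chr10:40038817-40039066, minus strand: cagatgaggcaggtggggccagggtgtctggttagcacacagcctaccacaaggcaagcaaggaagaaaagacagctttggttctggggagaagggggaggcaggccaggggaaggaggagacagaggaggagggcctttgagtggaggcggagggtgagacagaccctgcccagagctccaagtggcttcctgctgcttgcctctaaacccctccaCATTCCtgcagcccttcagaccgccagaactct
Ccn2 had 3 matches, beginning 166, 101 and 92 bases before the start, Ccn1 had 1 at 113 bases and Sparc had 1 at 33 bases. Of 33469 RefSeq promoters of this length, 12.1% held at least 1 match, so 3 of 7 members with one is a description of these letters and not of binding. A TATAAA match stood 34 bases before the start in Ccn1, 31 in Ccn2 and 44 in Postn, and farther away in Spp1 and Tnc, against 12.9% of promoters, and none overlapped a TEAD match in Ccn1 or Ccn2.

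Genes around the CCN pathway were followed as lists. Of 13 TGF-beta and YAP genes upstream of CCN, 0 were 2-fold higher and 1 was 2-fold lower over all cells, with a median log2 ratio of 0.31 against 0.04 for all genes tested. The 1 that was lower was Yap1, named after its value was seen, at 7.30 and 2.50 CPM. Tead2, a TEAD factor and the highest gene of the list at P7, had 65.6 and 81.3 CPM. Of 12 other YAP target genes, 1 was higher (F3, 2.71 and 22.2 CPM) and 1 lower (Amotl1, 5.44 and 2.16 CPM), both named after their values were seen, with a median of 0.05. Of 12 immediate early genes, which respond within minutes to stimuli including dissociation, 1 was higher and 6 were lower, with a median of -0.996.

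Among these immediate early genes Fos had 1141 CPM at P1 and 345 CPM at P7 (log2 -1.72), and Egr1 562 and 115 CPM (-2.29). Btg2 had a log2 ratio of -1.20, Junb of -1.03 and Ier2 of -1.02, whereas Nr4a1 was higher at P7, from 21.6 to 65.3 CPM. The summed level of the list was 3869 CPM at P1 and 1693 CPM at P7, and it was lower at P7 in each of the 11 classes compared. Within classes the sum went from 4477 to 1489.7 CPM in Penk-Col8a1 cells, from 5316 to 1970.3 in Gpc3-Dcn cells and from 2784 to 1743 in Irx3-Scg3 cells. Over all cells the list, Ccn1 and Ccn2 were lower at P7 together, and by class Ccn1 and Ccn2 were each lower in 9 of 11. Ccn2 was not lower in endothelial-like cells, nor in double-gate cells unless the highest cell of each library was left out. The log2 ratio of Ccn1 was -0.03 in mural-like cells and 0.83 in Irx3-Scg3 cells. The 0.83 rests on 39 UMIs at P7, 8 of them in 1 cell. Without the highest cell of each library it was 0.61 (-0.03 to 1.20). Irx3-Scg3 cells did not stand above macrophage-like cells for Ccn1 in either library. The part of the list in the difference of Ccn1 and Ccn2 was not tested.

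Ccn3, also known as NOV, encodes the CCN member that binds Notch1 and integrins and is linked to slowed cell growth. Its order of classes was steep. Irx3-Scg3 cells had 7179 CPM at P1 (7119 to 7238) and 6660.2 CPM at P7 (6534 to 6788), and 94.0% and 89.4% of them had a UMI after thinning. Double-gate cells followed with 5401 and 4195 CPM, then Aldh1a2-Scara3 cells with 2087 and 3012 CPM and Otor-Crym cells with 2001 and 2955 CPM. The last 2 did not differ beyond counting error at P7. At the low end were epithelial-like cells at P1, with 75.7 CPM, and glia-like cells at P7, with 119.8 CPM, so the highest class exceeded the lowest by 94.8-fold at P1 and 55.6-fold at P7.

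Although Ccn3 was lower over all cells at P7, it was higher in 8 of 11 classes. Of these 8, Otor-Crym, Aldh1a2-Scara3 and Penk-Col8a1 cells stood above macrophage-like cells, the reference for free RNA, in the share of cells with a UMI in both libraries, and mural-like cells at P7. Gpc3-Dcn, glia-like and epithelial-like cells did not stand above it in either library, and the other class was the reference itself. The log2 ratio was 0.56 in Otor-Crym cells (0.54 to 0.59), 0.53 in Aldh1a2-Scara3 cells (0.49 to 0.57) and 0.45 in Penk-Col8a1 cells (0.29 to 0.60), against -0.11 in Irx3-Scg3 cells (-0.14 to -0.08) and -0.36 in double-gate cells (-0.40 to -0.33). The Irx3-Scg3 cells held 32.3% of all Ccn3 UMIs at P1 and 8.63% at P7, while their number went from 904 to 180. Counting every cell that passed this gate, the number went from 1601 to 640. In mural-like cells Ccn3 had 359 CPM at P1 and 1104 CPM at P7, a log2 ratio of 1.62 (1.49 to 1.76), and the share of these cells with a UMI was 19.7% and 31.4%. Few of them carried the level, since 4 cells held 50% of the 599 UMIs at P1 and 7 cells 50% of the 1933 at P7. In macrophage-like cells the levels were 141 and 337 CPM, with 106 of 315 UMIs at P7 in 1 cell, and the log2 ratio of 1.25 became -0.11 with only cells under 10% mitochondrial UMIs. With clusters in place of gates the mural-like ratio was 0.79, under 2-fold. In epithelial-like cells the levels were 75.7 and 161 CPM, where 1 cell held 65 of 117 UMIs at P1 and 1 cell 69 of 154 at P7. The epithelial-like log2 ratio of 1.09 was 0.48 with a stricter gate, under 2-fold.

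Another CCN gene, Ccn4 or WISP1, a target of Wnt signalling, was measured among 17 other matricellular genes found in the files, of which 4 were 2-fold higher (Ccn4, Thbs2, Thbs4 and Comp) and 5 lower (Ccn5, Thbs1, Tnr, Spock2 and Spock3), all but Ccn4 named after their values were seen, with a median log2 ratio of -0.02. Ccn4 had 15.4 CPM over all P1 cells and 64.0 CPM over all P7 cells, a log2 ratio of 2.06. Its level in Otor-Crym cells was 14.7 CPM at P1 and 146 CPM at P7, and in Sfrp4-Dlx5-Matn4 cells at P7 it was 122 CPM. Thus Ccn4 was higher at P7 over all cells while the 3 CCN members were lower. Of 17 receptor genes with enough UMIs 0 were higher and 1 was lower (Itga9, named after its value was seen, at 0.816 and 0.215 CPM), the highest in level being Itgb1 at P1, the shared integrin beta chain, at 356 and 244 CPM, and Lrp1 at P7, an endocytic receptor named after its value was seen, at 142 and 273 CPM. Notch1, a binding partner of Ccn3 that was also picked after its value was seen, had 59.5 CPM at P1 and 117 CPM at P7, a log2 ratio of 0.97.

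Postn encodes a protein that cross-links collagen and binds integrins, and Tnc a large modular glycoprotein of developing matrix. Both were highest in the classes with the most Ccn3. Postn had 1159.6 CPM in double-gate cells at P1 (1129 to 1191) and 1093 CPM at P7 (1047 to 1139.7), 1121 and 959 CPM in Irx3-Scg3 cells, and 544 and 874 CPM in Aldh1a2-Scara3 cells. In the other classes it was at most 273 CPM. Postn was higher at P7 in Gpc3-Dcn cells, from 164 to 273 CPM (0.74, 0.65 to 0.82), and in Aldh1a2-Scara3 cells (0.68, 0.60 to 0.76), and lower in glia-like cells, from 133 to 90.9 CPM (-0.54, -0.67 to -0.42). Gpc3-Dcn cells held 4.57% of Postn UMIs at P1 and 16.5% at P7, and Irx3-Scg3 cells 27.6% and 5.69%.

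The largest ratio of Postn, 2.44, was in macrophage-like cells, where its level was 22.8 CPM at P1 and 124 CPM at P7. These were 26 and 116 UMIs, and at P7 3 cells held 50% of them. With only cells under 10% mitochondrial UMIs this log2 ratio was 0.60, and with clusters in place of gates 0.98. Macrophage-like cells serve here as the reference for free RNA, the UMIs that a droplet can hold without the cell making the gene.

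Tnc stood above that reference in fewer classes, Irx3-Scg3, double-gate, Aldh1a2-Scara3 and glia-like cells in both libraries and neuron-like cells at P1. It had 159 CPM in Irx3-Scg3 cells at P1 and 151 CPM at P7, with a log2 ratio of -0.07 (-0.28 to 0.13). In Aldh1a2-Scara3 cells Tnc had 90.5 CPM at P1 (82.0 to 99.7) and 208 CPM at P7 (192 to 225), a log2 ratio of 1.20 (1.02 to 1.38), and the share of these cells with a UMI was 16.6% and 31.8%. Double-gate cells had 138 and 235 CPM, so the order of the 3 classes at P1, led by Irx3-Scg3 cells, was turned at P7, when double-gate and Aldh1a2-Scara3 cells did not differ beyond counting error. Glia-like cells had 46.8 and 46.6 CPM, a log2 ratio of -0.01, but as their number went from 970 to 3049 they held 6.28% of Tnc UMIs at P1 and 24.1% at P7. In the other classes compared Tnc was at most 17.1 CPM, and the share of cells with a UMI was not above that of the reference beyond both intervals.

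Sparc was detected in most cells of each library and was the member with the same direction throughout. After thinning, 86.4% of all P1 cells and 97.3% of all P7 cells had a UMI. Among classes of at least 50 cells it was highest at P1 in mural-like cells, with 5075 CPM, then endothelial-like cells, with 3929 CPM, and Penk-Col8a1 cells, with 2649 CPM. At P7 epithelial-like (6089 CPM) and mural-like cells (5854 CPM) led and did not differ beyond counting error. At P1 the lowest mesenchymal class was Irx3-Scg3 cells, with 804 CPM, which is the class highest for Ccn3.

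Sparc was higher at P7 in 11 of 11 classes, by at least 2-fold in 4. The smallest ratio was in mural-like cells, 0.21 (0.16 to 0.25), and endothelial-like cells had 0.46 (0.41 to 0.50), the 2 classes highest at P1. In Irx3-Scg3 cells Sparc went from 804 to 2023 CPM, a log2 ratio of 1.33 (1.27 to 1.39), and in Otor-Crym cells from 1449 to 3242 CPM, 1.16 (1.14 to 1.19). In epithelial-like cells it went from 2258 to 6089 CPM, 1.43 (1.37 to 1.49). The largest ratio was in macrophage-like cells, 1.72, at 231 and 761 CPM, the level taken as background. That background stood at 13.7% of the level of all cells at P1 and 21.1% at P7, and its part in the ratios of the other classes was not tested. Scaling by the median gene ratio in place of the UMI total lowered the ratio in Otor-Crym cells to 0.99, and clusters in place of gates gave 0.67 in Irx3-Scg3 cells.

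Among 8 matrix partners of these proteins, 3 genes were 2-fold higher (Col3a1, Bmp1 and Col1a2) and 1 lower (Col5a1) at P7, the last of each named after its value was seen, with a median of 0.01. Col3a1, the chain of type III collagen and a marker of the Gpc3-Dcn gate, had 684 CPM at P1 and 1479.9 CPM at P7. Bmp1, the protease that trims procollagens, had 34.4 and 74.4 CPM. The median of the list was near that of all genes tested.

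Sparcl1 encodes a matrix protein related to SPARC that is also known in brain and vessels. It was highest in Gpc3-Dcn cells in both libraries, with 1975 CPM at P1 (1946 to 2005) and 2626 CPM at P7 (2601 to 2651). These cells held 26.5% of all Sparcl1 UMIs at P1 and 49.6% at P7, as their number went from 1250 to 2253. At P1 neuron-like cells (1424 CPM) and mural-like cells (1267 CPM) followed. The directions by class were mixed. In Otor-Crym cells Sparcl1 was higher at P7, from 132 to 307 CPM, a log2 ratio of 1.22 (1.13 to 1.31), and the share of cells with a UMI was 14.7% and 26.96%. In mural-like cells it was lower, from 1267 to 559.6 CPM, -1.18 (-1.29 to -1.07), with 82.7% and 56.5% of cells.

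Endothelial-like cells also had less Sparcl1 at P7, with 845 and 532 CPM (-0.67, -0.80 to -0.54). Epithelial-like cells had 764 and 299 CPM, a log2 ratio of -1.35 (-1.54 to -1.16), with 154 of 1180 UMIs in 1 cell at P1 and 89 of 286 at P7. In glia-like cells the level was 299.9 CPM at P1 and 137 CPM at P7, -1.13 (-1.21 to -1.04), but the ratio was 0.14 with clusters in place of gates and -0.78 with only cells under 10% mitochondrial UMIs, so its direction there depended on the choice of cells. Cells of several gates given to their highest score gave -0.91. In mural-like cells the ratio with clusters was -0.93. Sparc and Sparcl1 thus went in opposite directions in mural-like, endothelial-like, Aldh1a2-Scara3 and epithelial-like cells. They did so in Penk-Col8a1 cells too, but there the Sparcl1 ratio of -0.56 turned to 0.23 when cells of several gates were given to their highest score. The share of cells with Sparcl1 was set against macrophage-like cells, the reference for free RNA. Otor-Crym cells at P1, and glia-like and epithelial-like cells at P7, did not stand above it beyond both intervals. By level, only glia-like cells at P7 did not.

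Spp1 at P1 belonged largely to neuron-like cells. The 352 neuron-like cells had 4252 CPM (4202 to 4302) and held 53.7% of all Spp1 UMIs of the P1 library, and 89.7% of them had a UMI after thinning. These cells were deep, with a median of 19946 UMIs. At P7 there were 16 neuron-like cells, with 428 CPM from 55 UMIs, of which 38 were in 1 cell, and 82 of the 102 cells that passed the neuron gate at P7 also passed the glial gate. Without any cell that passed the neuron gate, 412 at P1 and 102 at P7, Spp1 had 258 CPM at P1 and 173 CPM at P7, and the log2 ratio over all cells was -0.58 in place of -1.62. With only cells under 10% mitochondrial UMIs it was -0.68, also under 2-fold. Cells of several gates held 9.43% of Spp1 UMIs at P1 and 37.3% at P7. Among all barcodes, before the limits on cells, 601 passed the neuron gate and no other at P1 and 32 at P7, of which 184 and 2 were beyond the limit of 5000 genes.

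The other classes with Spp1 were Penk-Col8a1 and Gpc3-Dcn cells, and Sfrp4-Dlx5-Matn4 cells at P7. Penk-Col8a1 cells had 819 CPM at P1 and 336 CPM at P7, a log2 ratio of -1.29 (-1.47 to -1.10), and 60.4% and 30.9% of cells with a UMI. With cells of several gates given to their highest score this ratio was -0.75, under 2-fold. Gpc3-Dcn cells had 732 and 281 CPM, -1.38 (-1.43 to -1.32), and 54.0% and 28.0% of cells. Both were lower at P7 by level and by detection. The 608 Sfrp4-Dlx5-Matn4 cells of P7 had 429.8 CPM, with a UMI in 42.7% of cells, and held 13.0% of the P7 UMIs. The summed level of 6 osteoblast markers was 325 CPM in these cells and 229 CPM in Gpc3-Dcn cells at P7, against 123 CPM over all P7 cells.

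Spp1 was lower at P7 in 10 of 11 classes, by at least 2-fold in 8, but most of these classes had little of it. Endothelial-like cells, the reference for free Spp1 RNA, had 47.4 CPM at P1 and 14.5 CPM at P7, and 8.33% and 2.76% of them had a UMI. Their log2 ratio of -1.71 was -0.75 when cells of several gates were given to their highest score. Only Gpc3-Dcn, Penk-Col8a1 and neuron-like cells at P1, and Gpc3-Dcn, Penk-Col8a1 and Sfrp4-Dlx5-Matn4 cells at P7, stood above that share beyond both intervals, among classes of at least 50 cells. The lower values in Aldh1a2-Scara3, Irx3-Scg3, double-gate, glia-like and mural-like cells are thus for cells whose share was not above this reference. By level, glia-like and mural-like cells were above it at P1 and not at P7. In mural-like cells 1 cell held 41 of the 135 UMIs at P1. In epithelial-like cells Spp1 was higher at P7, 80.2 and 280.2 CPM with a log2 ratio of 1.80, but 1 cell held 235 of 268 UMIs at P7 and 1 cell 81 of 124 at P1. Without the highest cell of each library the levels were 28.0 and 35.2 CPM and the log2 ratio 0.33 (-0.37 to 1.02).

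**Figure D3:**
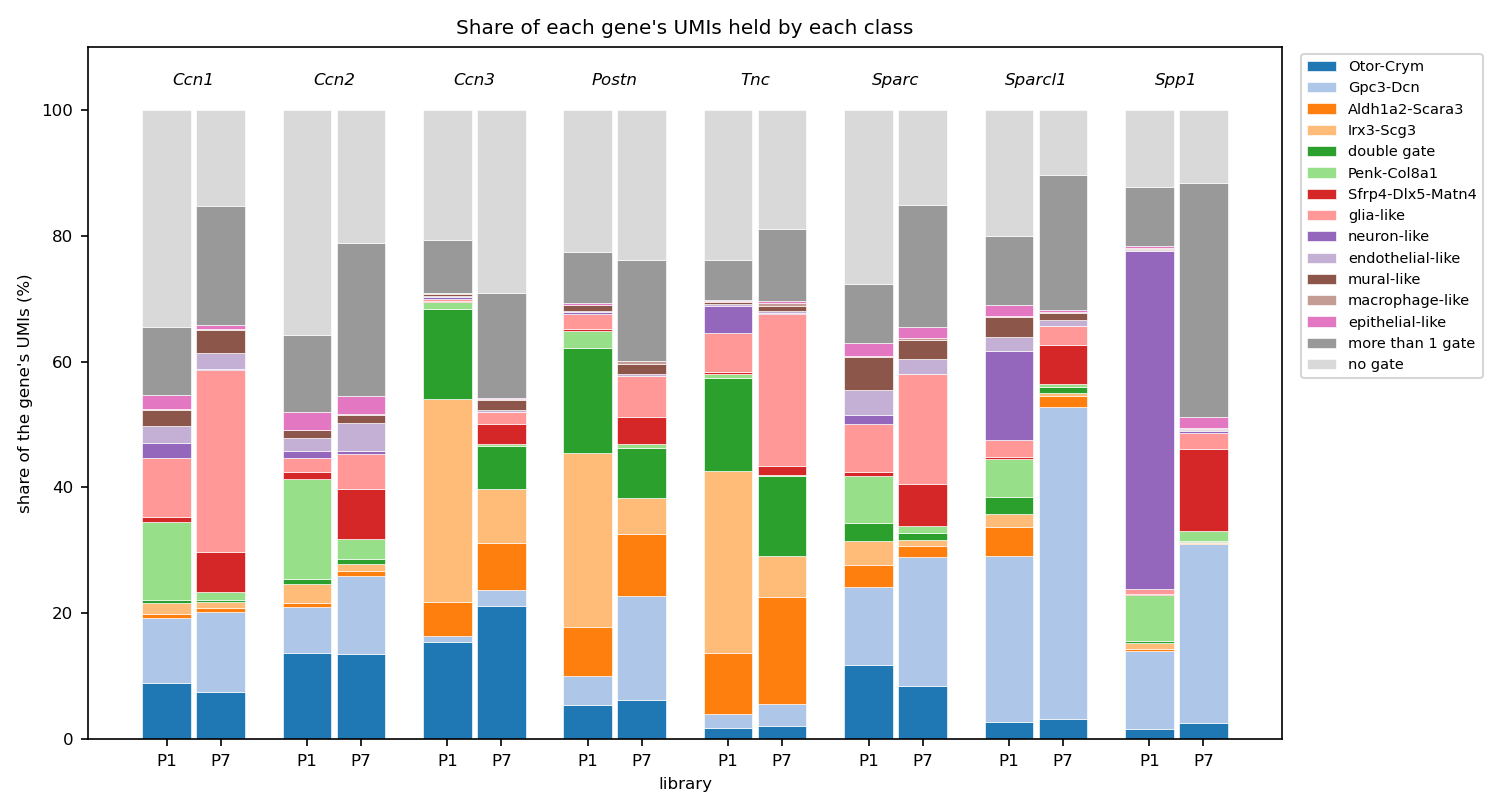
Share (%) of each gene's UMIs held by each class in the P1 and the P7 library, with cells of no gate in light grey and cells of several gates in dark grey. Neuron-like cells held 53.7% of Spp1 at P1, Irx3-Scg3 cells 32.3% of Ccn3 at P1 and Gpc3-Dcn cells 49.6% of Sparcl1 at P7.

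The shares of the classes and the levels within them were then exchanged between the libraries, as a calculation and not a test. The calculation used the classes, the cells of several gates and the cells of no gate. With P1 levels and P7 shares of UMIs, Ccn3 would have been at a log2 ratio of -0.63. With P7 levels and P1 shares it would have been at 0.25. Postn (-0.38 and 0.24) and Tnc (-0.31 and 0.41) gave the same pair of signs. Ccn3, Postn and Tnc were thus lower by shares and higher by levels in this calculation. Cells of no gate and of several gates are mixed, so a level there also depends on which cells they hold. By class Ccn3 was higher at P7 in 8 of 11 classes. It was lower in Irx3-Scg3 and double-gate cells, the classes richest in it. Ccn1 was the opposite, with 0.35 by shares and -0.67 by levels. Ccn2 was at 0.06 by shares and -0.54 by levels, neither near its measured -0.98. Its value by levels used the 16 neuron-like cells of P7, in which 38 of 41 Ccn2 UMIs were in 1 cell. For Sparc nearly all of the ratio remained with P1 shares, 0.95, whereas for Sparcl1 it was 0.21 by shares and close to 0 by levels. The Sparcl1 value by levels also used the 16 neuron-like cells of P7. These held 33 Sparcl1 UMIs, 11 of them in 1 cell, against 9322 in the 352 neuron-like cells of P1. For Spp1 the ratio by shares was -0.69 and that by levels -1.83, the latter resting on the 16 neuron-like cells of P7.

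**Figure D4:**
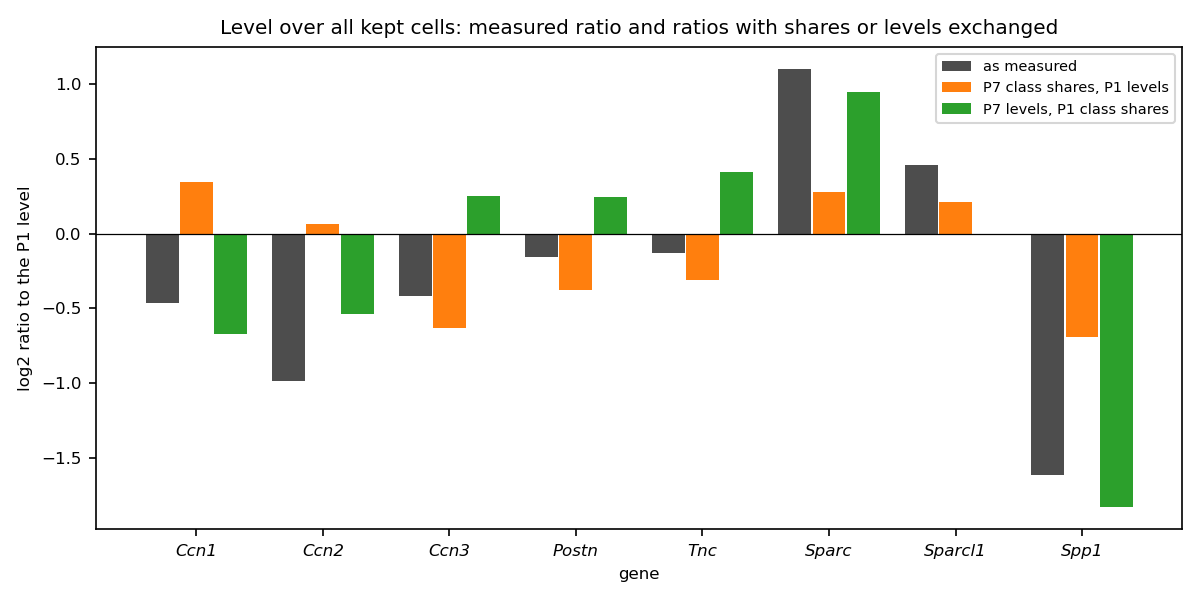
log2 ratio to the P1 level over all kept cells for each of the 8 genes, as measured (grey), with P1 class levels and P7 class shares (orange) and with P7 class levels and P1 class shares (green). Cells of no gate and of several gates count as classes here. For Ccn3, Postn and Tnc the orange and green bars point in opposite directions, and for Sparc the green bar, at 0.95, is close to the measured one.

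Detection was compared after thinning. Over all cells thinned to 2000 UMIs, the share with a UMI was 10.9% at P1 and 8.16% at P7 for Ccn1, 19.6% and 9.43% for Ccn2, and 48.1% and 39.8% for Ccn3. It was 29.96% and 29.2% for Postn, an order of ages that turned at 4000 UMIs and without thinning, 6.98% and 6.34% for Tnc, 41.9% and 48.3% for Sparcl1, and 25.1% and 15.8% for Spp1. In macrophage-like cells, which should lack most of these genes, the share was 10.9% and 16.9% for Ccn3, 5.11% and 10.2% for Postn and 19.7% and 54.2% for Sparc, at median depths of 7089 and 6178 UMIs. Of the other 11 classes with enough cells in a library, 5 at P1 and 7 at P7 exceeded this share beyond both intervals for Ccn3, 8 and 8 for Postn, 5 and 4 for Tnc, and 11 and 11 for Sparc. Without thinning, the share of macrophage-like cells with a Sparc UMI was 37.9% and 73.1%.

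The UMIs of most members were concentrated in few cells. The 10% of cells with the most UMIs of a gene held 83.7% of Spp1 at P1 and 79.0% at P7, and 66.5% and 81.4% of Ccn2. For Sparc it was 32.5% and 29.3%. Sparc was therefore the most evenly spread of these 3 genes. Ccn3 reached 384 UMIs in 1 cell at P1 and 395 at P7, whereas Tnc reached 15 and 14.

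Within cells some members went together, given as a description since cells share a library and classes differ in type. Of P1 cells with a Ccn3 UMI after thinning, 41.6% had a Postn UMI, against 19.2% of the rest, and at P7 the shares were 38.8% and 22.9%. Of P1 cells with Tnc, 56.6% had Postn, against 28.0%, and at P7 49.0% against 27.9%. Of P1 cells with Ccn1, 35.8% had Ccn2, against 17.6%, and at P7 16.9% against 8.76%. Of P1 cells with Spp1, 64.3% had Sparcl1, against 34.4%. Ccn3 went with Postn and Tnc with Postn, Ccn1 went with Ccn2, and Spp1 with Sparcl1, but these were not the only pairs. Of P1 cells with Spp1, 26.5% had Ccn2, against 17.3%, and of P1 cells with Ccn3, 10.1% had Tnc, against 4.08%. Neuron-like cells had high levels of both Spp1 and Sparcl1 at P1.

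Levels were also compared across the profiles of 11 classes in 2 libraries, 22 profiles whose cells come from 2 shared libraries. Pearson's r of log2(CPM + 5) was 0.83 for Ccn3 and Postn, 0.79 for Postn and Tnc and 0.74 for Ccn1 and Ccn2, but 0.45 for Spp1 and Sparcl1, below the 0.59 of Spp1 and Ccn2, and it was -0.65 for Ccn1 and Tnc. Among 10882 genes the profiles most like Ccn3 were those of Fzd10 (0.95), a Wnt receptor, Nkd2 (0.94), an inhibitor of Wnt signalling, and Gzmm (0.92). Those most like Ccn1 were Amotl2 (0.82), a YAP-binding protein, Ufm1 (0.80) and Itm2a (0.79), and most like Ccn2 Rflnb (0.85), Etl4 (0.83) and Fut8 (0.83). Tnc was most like Nav3 (0.94), Wnk4 (0.92) and Creb5 (0.91), and Sparc most like Bcar1 (0.91), Cavin3 (0.90) and Ldhb (0.90). Spp1, whose profiles leave out neuron-like cells, was most like Ly6h (0.86), Hspa5 (0.83) and Tmed9 (0.83), and Sparcl1 most like Gnas (0.86), Adamts1 (0.78) and Lrrcc1 (0.76). For Postn the closest were AABR07019403 (0.92), LOC100911486 (0.91) and Msl3 (0.91).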

How the data were processed

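Droplet 3′ RNA sequencing of dissociated cochlear duct cells gave 1 library each at P1 and P7. The deposited values are UMI counts per gene and barcode, which the authors made with Cell Ranger 3.1.0 on rn6, per the labels, and they are not normalized. By the limits given in the Methods, a barcode was kept as a cell above 500 and below 5000 genes, from 500 UMIs up, and below a mitochondrial share of 25%. The members, marker lists and pathway lists were chosen with earlier results of these data known.

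A marker counted as high in a cell above 2 times the mean of both libraries. A cell passed a gate with at least 2 high markers for lists of up to 5 genes or 3 for longer lists, and at least 5 UMIs of the list. This scoring was chosen after the marker values, but not the members' values, were seen. Cells passing several gates were left out, which also stood in for doublet removal, except the Aldh1a2-Scara3 and Irx3-Scg3 pair, whose overlap exceeded 33.3% of the smaller gate, with at least 50 cells, in both libraries. Summed over classes, each list was highest in its own class, except the Sfrp4-Dlx5-Matn4 list at P1 and the Aldh1a2-Scara3 list at P7.

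Levels are UMIs of a gene for every 1000000 UMIs (CPM) summed over a library's cells, with exact Poisson intervals. Log2 ratios of P7 to P1 have exact conditional binomial intervals, and shares of cells exact Clopper-Pearson intervals. A count of 0 was set to 3 UMIs. With 1 library per age no test was run: a gene whose higher library held 30 UMIs or more counted as called at a 2-fold difference. Named genes were the members, the 3 genes most like each member in profile, and list genes of at least 50 CPM with a 2-fold difference or, where there was none, the list's highest gene. Detection was read after thinning each cell to 2000 UMIs, which left out 252 cells at P1 and 711 at P7. Alternatives were other cell limits, totals, scaling, gates, thinning and Leiden clusters. The calls were checked on simulated Poisson counts, which hold no spread between cells or libraries, so that check covers counting error only. Python 3.11.15, numpy 2.4.6, scipy 1.17.1, pandas 2.3.3, scikit-learn 1.9.0, leidenalg 0.10.2 and matplotlib 3.10.9 were used. Promoter sequences are from RefSeq, build GRCr8.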

Additional observations from a re-analysis of the deposited data

Results flagged for a closer look

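Sparcl1 was at least 2-fold higher at P7 in Otor-Crym cells (log2 ratio 1.22) and at least 2-fold lower in glia-like (-1.13), mural-like (-1.18) and epithelial-like cells (-1.35). The classes had opposite directions, and the difference between them was not tested, since each age was 1 library. In glia-like cells the direction turned with clusters in place of gates. In Otor-Crym cells at P1, and in glia-like and epithelial-like cells at P7, the share of cells with Sparcl1 was not above that of macrophage-like cells, the reference for free RNA.

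Spp1 was at least 2-fold higher at P7 in epithelial-like cells (1.80), where 1 cell held most of the UMIs in each library, and at least 2-fold lower in Gpc3-Dcn (-1.38), Aldh1a2-Scara3 (-1.996), Irx3-Scg3 (-1.58), double-gate (-2.86), Penk-Col8a1 (-1.29), glia-like (-1.70), endothelial-like (-1.71) and mural-like cells (-2.90). This difference was not tested either.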

How the results depend on the processing

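Over all kept cells, Ccn1, Ccn2, Ccn3, Postn and Spp1 stayed lower and Sparc and Sparcl1 higher at P7 under each alternative tried, whereas Tnc turned. With all barcodes as deposited the log2 ratios were -0.40 for Ccn1, -0.90 for Ccn2, -0.43 for Ccn3, -0.21 for Postn, 1.11 for Sparc, 0.35 for Sparcl1, -1.99 for Spp1 and -0.23 for Tnc. With under 10% mitochondrial UMIs they were -0.53 for Ccn1, -0.34 for Ccn3, 0.64 for Sparcl1 and -0.68 for Spp1. With ribosomal, mitochondrial and haemoglobin genes left out of the total they were, in the order Ccn1, Ccn2, Ccn3, Postn, Sparc, Sparcl1, Spp1 and Tnc, -0.55, -1.07, -0.50, -0.24, 1.02, 0.38, -1.70 and -0.21, with median-of-ratios scaling -0.53, -1.05, -0.48, -0.22, 1.03, 0.40, -1.68 and -0.20, and with each cell weighted equally -0.54 for Ccn1, -1.15 for Ccn2, -0.060 for Postn, 1.00 for Sparc, 0.56 for Sparcl1, -1.17 for Spp1 and 0.017 for Tnc. Without cells passing the neuron gate, an alternative chosen after seeing the data, they were -0.52 for Ccn1, -1.07 for Ccn2, -0.50 for Ccn3, -0.25 for Postn, 1.02 for Sparc, 0.59 for Sparcl1 and -0.58 for Spp1. Ccn2 thus passed the 2-fold limit under 4 of these 6 alternatives, and Spp1 lost it under 2. The causes were not tested. Median-of-ratios scaling moved all genes by 0.066 in all cells.

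Of the members 2-fold different in a class, 16 of 23 stayed so with clusters, 25 of 27 with median-of-ratios scaling, 19 of 22 under 10% mitochondrial UMIs, 21 of 27 with cells of several gates given to their highest score, 24 of 25 with a stricter gate and 25 of 27 without the highest cell of each library, also chosen after seeing the data. Sparcl1 in glia-like cells turned to 0.14 with clusters and Ccn3 in macrophage-like cells to -0.11 under 10% mitochondrial UMIs. The P7 minus P1 share of cells with Postn turned to 1.92 percentage points when thinned to 4000 UMIs and 2.61 without thinning. No cluster was named for Aldh1a2-Scara3 cells alone in either library, so clusters gave no value for them. For want of cells at P7, clusters and the stricter gate gave none for Penk-Col8a1 cells and the 10% limit none for epithelial-like cells. No paired analysis was possible because each age was 1 library and no test was run. Depth limits Tnc and Ccn1 most, which had under 30 UMIs in several classes.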
